A study of Mus musculus with 5 samples.

Results

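The cells described here are a small class of smooth muscle-like cells of the mouse ovary. They were picked out of a droplet-based single-cell RNA-seq survey (10x Genomics, 3′ end counting of unique molecular identifiers, UMIs) by the genes they carried. A cell was taken when at least 1000 genes were detected, when under 15% of its UMIs came from mitochondrial genes, when it held at least 1 UMI of Tagln and at least 1 UMI of 3 or more of 6 markers (Ednrb, Foxp2, Adamts6, Myocd, Fbxl22 and Lmod1), and when it held at most 4 UMIs of the granulosa gene Inha. Cells with any UMI of Myoc, Tnnt2, Sh3bgr, Rgs5, Cdh5 or Ptprc were left out. The rule found 1203 cells among 48163, which was 3.01% of the 39967 cells that passed the 2 quality limits and 16.8% of the 7162 Tagln-positive cells that passed every condition but the one on markers. The survey held 5 libraries of whole ovaries from untreated C57BL6/J females, 1 library each at 2, 3, 4, 5 and 6 wk of age, and all groups named below were gated from these same libraries. The ovaries were dissociated with trypsin and live cells were sorted by exclusion of SYTOX Orange. The 5 libraries held 9471, 9253, 11077, 7779 and 10583 cells and 124938004, 93438618, 117666094, 107071492 and 144609431 UMIs from 2 to 6 wk, and the gated cells numbered 217, 233, 172, 265 and 316 with a median of 11649, 8003, 7132, 8783 and 9986 UMIs per cell. With 1 library per age no test between ages was possible. Intervals by age cover counting error only, and age cannot be told apart from the animal, the library or the version of Cell Ranger used for it (3.1.0 at 2 to 4 wk and 6.0.1 at 5 and 6 wk).

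Smooth muscle cells contract when calcium activates myosin light-chain kinase, and their contractile genes are switched on by serum response factor together with its partner myocardin. The factor binds a short A- and T-rich element known as the CArG box. In the ovary, smooth muscle surrounds arteries and lies in the stroma and the outer wall of growing follicles, where its tone has been studied in connection with endothelins, oxytocin and ovulation. Endothelins act through the receptors Ednra and Ednrb, and Foxp2 is a forkhead transcription factor best known from brain and lung. Where the gated cells lay in the ovary could not be seen in dissociated cells, so they are called gated smooth muscle-like cells here. Levels are given in CPM, the UMIs of a gene summed over the cells of a group in one library and scaled so that all genes of that sum come to 1000000.

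The 6 markers chose the cells, so their levels are a description with no test. Of the 1203 cells, 603 (50.1%) held exactly 3 of the markers, 390 (32.4%) held 4, 169 (14.05%) held 5 and 41 (3.41%) held all 6. Fbxl22, which encodes an F-box protein of the sarcomere Z-disc, had a UMI in 86.9% of the cells, and Lmod1, a leiomodin that nucleates actin filaments in smooth muscle, in 70.4%. Foxp2 was detected in 66.7%, Myocd, the gene of myocardin itself, in 65.4%, Ednrb in 52.9% and the secreted protease gene Adamts6 in 28.4%. Thus 636 cells had a UMI of Ednrb and the other cells had none. In 318 hematopoietic cells, a type that should lack these genes and whose median depth was 5283.5 to 9174 UMIs, the shares were 5.66% for Fbxl22, 3.77% for Lmod1, 5.03% for Foxp2, 4.72% for Myocd, 9.75% for Ednrb and 3.14% for Adamts6. By library, the hematopoietic share for Ednrb was 12.2, 15.6, 18.6, 6.19 and 4.49% from 2 to 6 wk.

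Ednrb stood at 130.0, 138, 135, 152 and 133 CPM in the gated cells from 2 to 6 wk. In Myoc-positive smooth muscle cells it stood at 136, 280.4, 328, 334 and 419.6 CPM, and in mural cells, the Rgs5-positive cells of the vessel wall, at 286, 113, 118, 40.04 and 13.4 CPM. The level in the gated cells was nearly even over the 5 libraries, while the level in mural cells was far lower at 5 and 6 wk than at 2 wk. Hematopoietic cells, read as background, held 42.3, 69.2, 76.9, 8.56 and 28.3 CPM of Ednrb from 2 to 6 wk. The part of background in the Ednrb level of the gated cells was not tested. Foxp2 stood at 99.1, 149.8, 148, 183 and 186 CPM in the gated cells, at 161, 193, 192, 233 and 243 CPM in Myoc smooth muscle and at 37.4, 62.2, 116, 123 and 118 CPM in granulosa cells. In mural cells Foxp2 did not exceed 11.2 CPM. Myocd stood at 97.3, 113, 131, 132 and 133 CPM in the gated cells and at 93.8, 94.6, 88.1, 74.6 and 88.9 CPM in Myoc smooth muscle, so its level in the gated cells lay above that of the more contractile cells in all 5 libraries, with no test because the gate required the markers of one group only.

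To see how far each marker went with the others, it was also read in cells chosen by at least 3 of the other 5. Ednrb was then found in 41.2, 45.8, 36.6, 44.5 and 42.4% of cells from 2 to 6 wk, against 3.16, 3.62, 1.39, 2.32 and 3.54% of Tagln-positive cells with none of the other 5. Foxp2 was found in 37.3, 49.7, 45.0, 62.7 and 68.5%, against 8.45, 10.6, 12.6, 20.5 and 20.6%. For both genes the shares were far apart at every age at similar median depth, although the share of Foxp2 in cells with none of the other 5 was higher at 5 and 6 wk than at 2 to 4 wk. The lowest share in cells chosen by other markers was 12.8%, for Adamts6 at 4 wk, where 3.08% of cells with none of the other 5 held it. At least 3 of the 6 markers were also present in 75.0 to 90.8% of Myoc smooth muscle cells, in 9.38 to 25% of mural cells, in 4.20 to 15.8% of granulosa cells (whose median was 13805.5 to 18977 UMIs per cell) and in 0 to 8.47% of hematopoietic cells. The markers were thus shared with the Myoc smooth muscle cells, and the rule on Myoc, Tnnt2 and Sh3bgr parted the 2 classes.

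**Figure D1:**
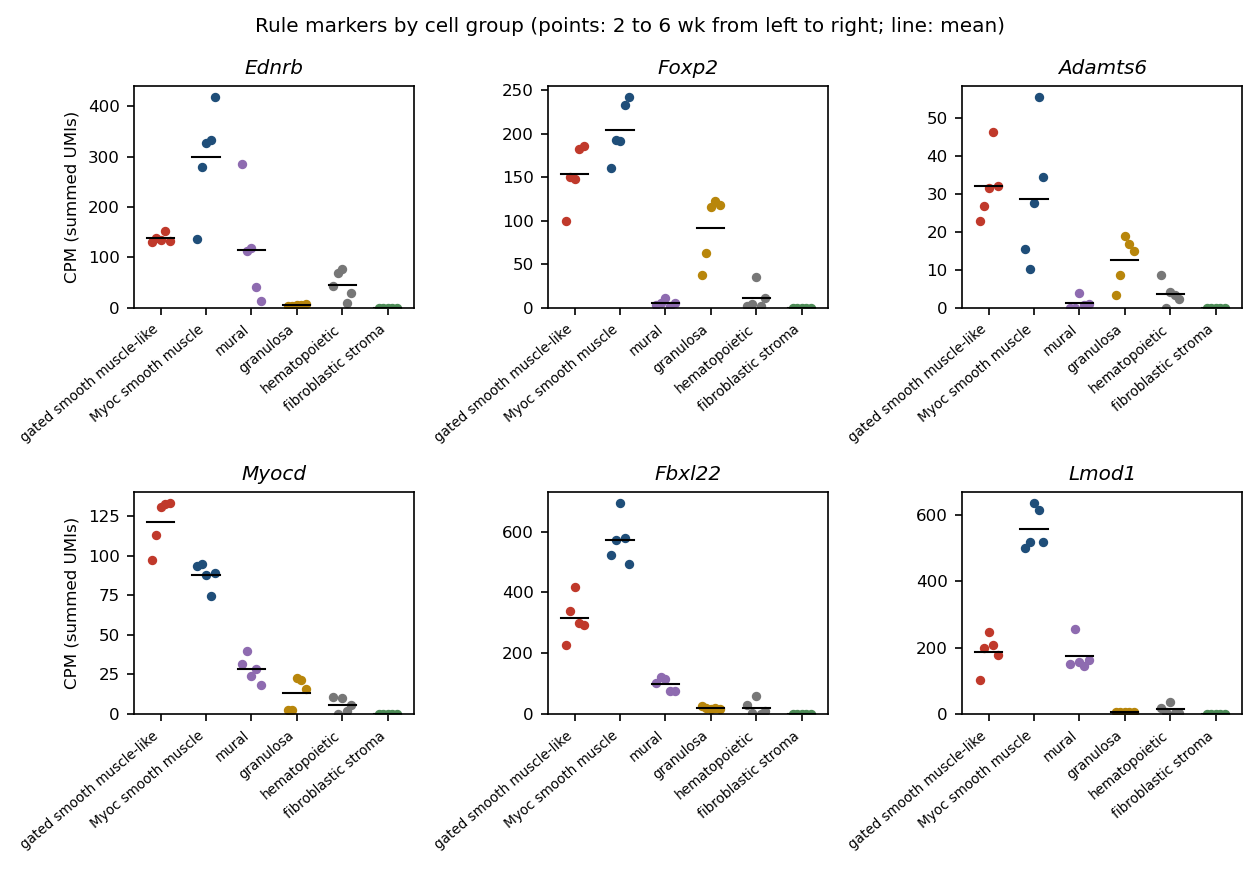
Level of each of the 6 rule markers (y axis, CPM of summed UMIs) in 6 cell groups (x axis), with 1 point per library from 2 to 6 wk and a line at the mean of the 5 libraries. The markers chose the gated cells and are absent from fibroblastic stroma by its gate, so the plot is a description. Ednrb lies between 130.0 and 152 CPM in the gated cells and Foxp2 between 99.1 and 186 CPM.

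Cells just inside and just outside the threshold on markers differed in contractile genes as well. With exactly 2 markers, Acta2, the smooth muscle actin, stood at 1699, 2262, 2234, 1850.4 and 1539 CPM from 2 to 6 wk, and with exactly 3 it stood at 2951, 3484, 4444, 2991 and 3225 CPM. With 4 or more it stood at 4629, 6434, 6295, 5143 and 5533 CPM. The level was higher with more markers in every library. The markers that split these cells include smooth muscle genes, so this is a description and no test. Dcn, a proteoglycan of fibroblasts, stood at 1529, 992, 755, 1909 and 1222 CPM with exactly 2 markers and at 1058, 711, 839.6, 1508 and 1089.9 CPM with exactly 3. With 4 or more it stood at 1092, 784, 808, 980 and 890 CPM, above the level with exactly 3 at 2 and 3 wk and below it at 4 to 6 wk.

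The gated cells were also read for marker genes of the cell types that a dissociated ovary can hold. All 10 genes of a smooth muscle list were detected in every library, with a summed level of 6952, 10006, 11581, 8765 and 8644 CPM and Acta2 as the most abundant. The sum was 26446 to 33261 CPM in Myoc smooth muscle, 6842 to 12899 CPM in mural cells and 991 to 1679 CPM in fibroblastic stroma. The gated cells also held the fibroblast list (Dcn, Lum, Pdgfra, Mmp2, Mfap4 and Col1a1) at a summed 4101, 3253, 3225, 3076 and 2909 CPM, close to the 2240.5 to 3649 CPM of Myoc smooth muscle and below the 4830.4 to 7951 CPM of fibroblastic stroma, whose gate asked for Dcn and Pdgfra and so set part of its sum. The gated cells thus held contractile genes, with fibroblast genes present throughout. The rule asked for Tagln and for markers that include the smooth muscle genes Myocd and Lmod1. The level of contractile genes was therefore set in part by the rule and is no independent check of the label. Des, which encodes the muscle intermediate filament desmin, was low, at 29.5, 56.97, 35.3, 6.73 and 8.32 CPM against 906, 226, 447, 304 and 111 CPM in Myoc smooth muscle.

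Markers of other types were low. This was set in part by the rule, which left out cells with any UMI of Rgs5 (pericyte list), Cdh5 (endothelial list) or Ptprc (hematopoietic list) and capped Inha (granulosa list). The pericyte list summed to 28.3 to 53.7 CPM, against 4073 to 6196 CPM in mural cells, with Rgs5 at 0 by the rule and Higd1b at 0 in 4 of 5 libraries. The endothelial list summed to 5.27 to 9.56 CPM, the theca list to 7.18 to 17.7 CPM with Insl3 at 0, the surface epithelial list to at most 2.81 CPM and the germ cell list to 1.88 to 4.31 CPM. The Schwann cell and melanocyte list, which covers other known sites of Ednrb, summed to 24.1 to 49.9 CPM with Sox10 at 0 in every library. The lymphatic list summed to 8.85 to 20.9 CPM, mostly Lyve1, and the hematopoietic list to 27.2 CPM at 4 wk and at most 3.22 CPM at the other ages. The 6 granulosa genes summed to 205, 230, 318, 176 and 264 CPM, with Foxl2 the most abundant under the cap on Inha and Fshr at 0 in every library. Granulosa cells, whose gate asked for Inha, held 4561 to 7009 CPM. Fibroblastic stroma held 256, 238, 293, 143 and 287 CPM of the same 6 genes, more than the gated cells at 2, 3 and 6 wk and less at 4 and 5 wk. The part of granulosa RNA in the levels of Foxp2, Esr2 and Bmpr1b, which granulosa cells hold in quantity, was not tested.

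A share of 2.80% (95% exact binomial interval 2.44 to 3.19) of quality-passing cells at 2 wk met the rule. The share was 3.04% (2.67 to 3.45) at 3 wk, 1.88% (1.61 to 2.17) at 4 wk, 4.04% (3.58 to 4.55) at 5 wk and 3.58% (3.203 to 3.99) at 6 wk. Depth differed between libraries, and a cell with more UMIs reaches 3 markers more easily, so every cell was also thinned to 5000 UMIs, with shallower cells left out. The shares then stood at 1.74, 2.29, 1.75, 3.79 and 3.90%, higher at 5 and 6 wk than at 2 to 4 wk under either count. The whole rule was applied again to the thinned counts, so cells kept out by Inha or by an excluded gene could then enter. The thinned set held 130, 153, 145, 224 and 312 cells, beside 215, 202, 140, 242 and 297 gated cells with at least 5000 UMIs before thinning. Thinning thus changed the set of cells as well as the depth. The limit on Inha had left out 24, 35, 161, 73 and 91 cells that met every other condition, and without it, a setting chosen after seeing the data, the shares were 3.11, 3.499, 3.63, 5.15 and 4.61%, so that 4 wk was no longer the lowest. The 2 later libraries were also those made with the later Cell Ranger version. Scrublet marked 6 of the 1203 cells as possible doublets, and no cell barcode was shared between gated cells of different libraries. At least 1 UMI of Mki67 or Top2a, genes of dividing cells, was found in 46, 25, 15, 24 and 29 gated cells from 2 to 6 wk.

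**Figure D2:**
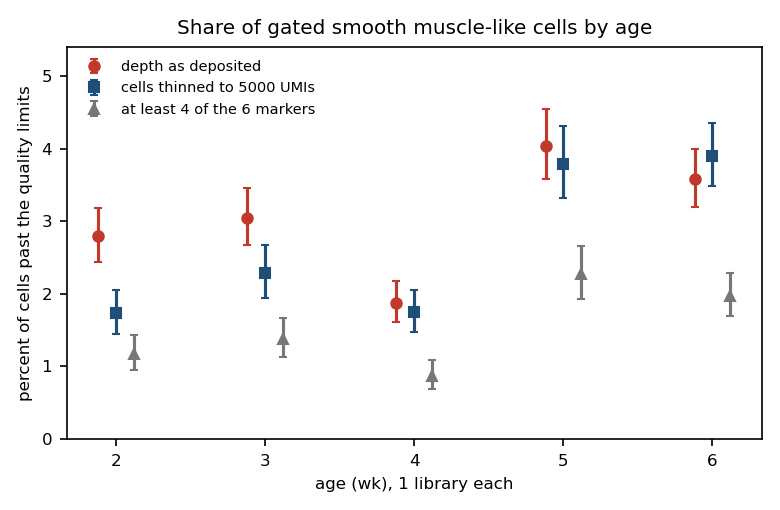
Percent of cells past the quality limits that met the rule (y axis) by age in wk (x axis, 1 library each), at the depth as deposited, after thinning to 5000 UMIs, and with at least 4 of the 6 markers asked for. Error bars are 95% exact binomial intervals and cover counting error only. All 3 series are higher at 5 and 6 wk than at 2 to 4 wk.

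The gated cells were then compared with 3 groups gated from the same libraries: 322 Myoc smooth muscle cells (Tagln, Myoc and Tnnt2 or Sh3bgr present), 4068 cells of fibroblastic stroma (Dcn and Pdgfra present, all 6 markers absent) and 598 mural cells (Rgs5 and at least 2 other pericyte genes present). The stroma cells also held no UMI of Cyp17a1, Myoc, Tnnt2, Sh3bgr, Rgs5, Cdh5 or Ptprc. Myoc smooth muscle held none of Rgs5, Cdh5 or Ptprc, and mural cells none of Myoc, Cdh5 or Ptprc. UMIs were summed per group and library and tested with edgeR's quasi-likelihood test, with the library as a block and Benjamini-Hochberg adjustment over all genes tested. The genes that either gate of a comparison used were left out of that comparison. Since cells were chosen by their own UMIs, genes that go along with a gate gene from cell to cell were bound to differ, and the p-values measure only how repeatable a difference was over the 5 libraries. The 3 comparisons share the gated cells and are given side by side. Log2 fold changes are the gated cells over the other group, followed by their standard error (SE) after the ± sign where no test is spelled out, and such genes passed an adjusted p of 0.05.

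Against Myoc smooth muscle, the contractile apparatus was lower throughout. All 27 contractile genes tested were lower in the gated cells, with a median log2 fold change of -1.17 where the median of all 8625 genes was 0.02. Over all genes, 890 (10.3%) were lower and 879 (10.2%) higher at an adjusted p under 0.05. Acta2 stood at 3613, 4814, 5334, 4229 and 4547 CPM from 2 to 6 wk in the gated cells and at 13244, 12291, 12268, 11540.0 and 11603 CPM in Myoc smooth muscle, so the groups did not overlap (log2 fold change -1.47, SE 0.07, adjusted p = 2.8e-10). Myh11, the smooth muscle myosin heavy chain, stood at 300.3, 658, 863, 657 and 435 CPM against 2562, 2635, 3269, 2313 and 2046 CPM (log2 fold change -2.23, SE 0.13, adjusted p = 2.8e-09). Cnn1, encoding the actin-binding protein calponin, stood at 68.5, 172, 152, 119.7 and 73.2 CPM against 1541, 1584, 1385, 889 and 854 CPM. That was the steepest difference of the list after Des (log2 fold change -3.48, SE 0.16, adjusted p = 2.3e-10, and log2 fold change -3.97, SE 0.31, adjusted p = 6.1e-08 for Des). Actg2, the actin of visceral muscle, differed by -2.88 ± 0.19 and Tpm2, a tropomyosin, by -2.197 ± 0.10, while genes of actin attachment were among the smaller differences, with -0.92 ± 0.09 for Vcl (vinculin) and -0.52 ± 0.08 for Tln1 (talin).

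Against fibroblastic stroma the same list pointed the other way. Of 27 contractile genes tested, 26 were higher in the gated cells and Des alone passed in neither direction, with a median log2 fold change of 1.57 where the median of all 11193 genes was -0.01, and 10.6% of all genes were higher and 11.0% lower. Cnn1 averaged 117 ± 46.3 CPM (SD, n = 5 libraries) against 2.38 ± 1.67 CPM (log2 fold change 5.53, SE 0.24, adjusted p = 3.5e-08). Actg2 averaged 296 ± 94.9 CPM against 7.499 ± 2.48 CPM (log2 fold change 5.197, SE 0.22, adjusted p = 2.3e-08), and Myh11 582 ± 219 CPM against 16.3 ± 9.33 CPM (log2 fold change 5.12, SE 0.30, adjusted p = 2.5e-07). For these 3 genes the lowest library of the gated cells lay above the highest of the stroma. Against mural cells the list was divided. Of 27 genes, 10 were higher and 8 lower (15 and 5 after thinning to 5000 UMIs), with a median of 0.05 where the median of all 9610 genes was -0.01, and 17.8% of all genes were higher and 19.8% lower. Acta2 was higher (log2 fold change 0.46, SE 0.13, adjusted p = 0.014), in 3 of 5 libraries by CPM and in 4 after TMM scaling, Actg2 in 5 (log2 fold change 2.04, SE 0.30, adjusted p = 0.00011), while Myh11 was lower (log2 fold change -0.81, SE 0.16, adjusted p = 0.0014).

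**Figure D3:**
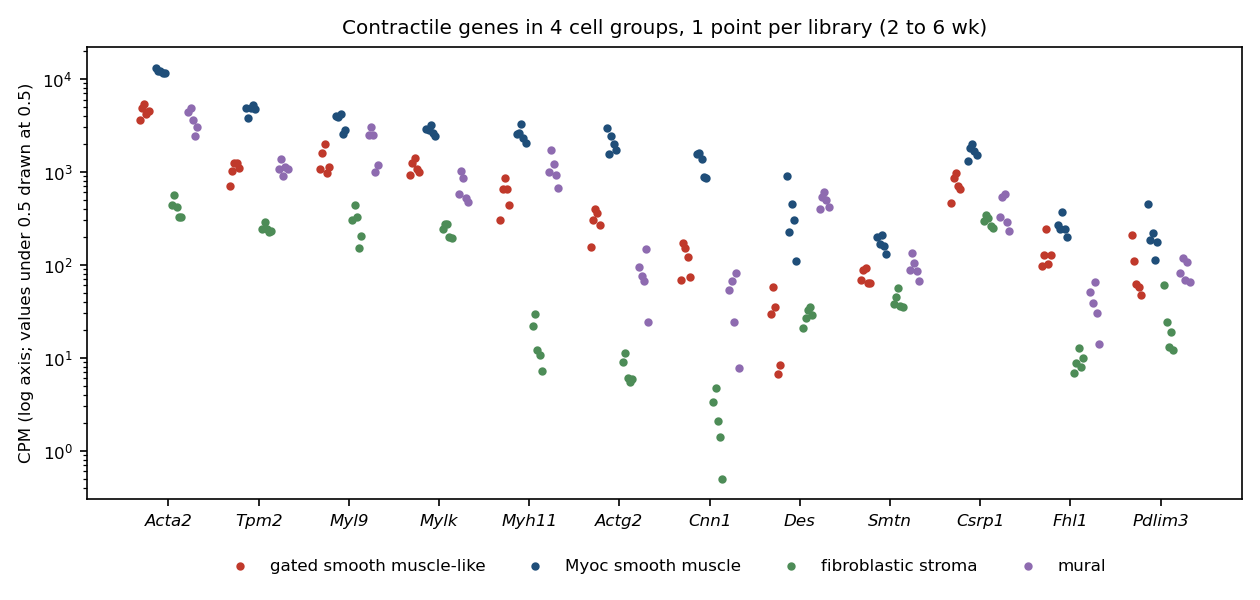
Level of 12 contractile genes (x axis) in CPM (y axis, log scale, values under 0.5 drawn at 0.5) in the gated cells, Myoc smooth muscle, fibroblastic stroma and mural cells. Each point is 1 library, 5 per group. For Acta2 the gated cells span 3613 to 5334 CPM, below every library of Myoc smooth muscle and above every library of stroma.

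Because contractile genes stood apart together in these comparisons, the CArG box was looked for in the RefSeq promoters (mouse GRCm38.p6, 250 bases before to 50 after the start) of the contractile list. An exact match on either strand was found for 5 of 27 genes with a promoter (18.5%), against 488 of 27025 genes in the promoter table (1.81%). The fifth gene, Ldb3, had too few UMIs to test. These 27 genes are not the same set as the 27 contractile genes tested above. Tagln, Myh11 and Actg2 had no promoter in the table, so nothing could be looked for there. Lmod1, a gate gene, and Ldb3 had a promoter but were not tested. Of Tagln and the 6 markers, 3 had a promoter in the table, of which Fbxl22 held the box and Ednrb and Lmod1 did not. The box is given in capitals for 1 marker and the other 4 contractile genes, which are shown so that the element can be seen in its surroundings. Fbxl22 (chr9:66514544-66514843, minus strand), a rule marker, held it 222 bases before the start, Myl9 (chr2:156775214-156775513, plus strand), the regulatory myosin light chain, 161 bases before, Myl6 (chr10:128492960-128493259, minus strand), the essential light chain, 50 bases before, Vcl (chr14:20929148-20929447, plus strand) 227 bases before and Fhl1 (chrX:56779433-56779732, plus strand), a LIM-domain protein of muscle, 102 bases before. Myl6 and Fhl1 each had a second promoter in the table without the box. All sequences are written 5′ to 3′ on the strand of the gene.
Fbxl22: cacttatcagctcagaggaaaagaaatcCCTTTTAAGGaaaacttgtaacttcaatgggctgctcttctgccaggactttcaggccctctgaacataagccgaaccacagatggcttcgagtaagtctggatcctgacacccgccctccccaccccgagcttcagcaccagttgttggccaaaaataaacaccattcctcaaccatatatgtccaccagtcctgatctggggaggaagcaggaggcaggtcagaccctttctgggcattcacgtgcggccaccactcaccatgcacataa
Myl9: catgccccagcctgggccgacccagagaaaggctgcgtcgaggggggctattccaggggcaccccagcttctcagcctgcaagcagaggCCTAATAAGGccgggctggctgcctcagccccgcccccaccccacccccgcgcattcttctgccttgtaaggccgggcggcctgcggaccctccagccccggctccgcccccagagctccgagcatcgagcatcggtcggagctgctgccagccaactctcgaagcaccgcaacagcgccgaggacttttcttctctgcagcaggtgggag
Myl6: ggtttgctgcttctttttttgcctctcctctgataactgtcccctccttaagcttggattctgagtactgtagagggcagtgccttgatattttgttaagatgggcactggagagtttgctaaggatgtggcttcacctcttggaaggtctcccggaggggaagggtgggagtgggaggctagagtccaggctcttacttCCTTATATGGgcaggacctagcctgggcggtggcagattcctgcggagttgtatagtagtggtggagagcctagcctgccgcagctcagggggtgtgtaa
Vcl: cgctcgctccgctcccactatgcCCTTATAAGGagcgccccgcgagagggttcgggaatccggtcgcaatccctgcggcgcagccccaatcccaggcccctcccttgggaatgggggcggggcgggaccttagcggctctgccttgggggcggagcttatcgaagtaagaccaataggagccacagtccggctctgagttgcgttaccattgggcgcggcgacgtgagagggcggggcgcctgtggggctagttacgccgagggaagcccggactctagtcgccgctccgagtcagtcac
Fhl1: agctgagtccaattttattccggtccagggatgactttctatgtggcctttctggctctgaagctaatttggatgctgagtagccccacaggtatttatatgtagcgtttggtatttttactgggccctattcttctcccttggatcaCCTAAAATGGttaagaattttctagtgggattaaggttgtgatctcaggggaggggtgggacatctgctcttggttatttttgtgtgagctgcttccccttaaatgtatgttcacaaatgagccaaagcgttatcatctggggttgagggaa

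These 4 contractile genes all stood between the 2 reference groups. So did nearly all of the contractile list, with or without the box. Of its tested genes, 27 of 27 were lower than in Myoc smooth muscle and 26 of 27 higher than in stroma. Myl9 stood at 1064, 1607, 2015, 983 and 1138 CPM in the gated cells, 3952, 3868, 4168, 2564 and 2788 CPM in Myoc smooth muscle and 305, 436, 323, 149.9 and 203 CPM in fibroblastic stroma. Fhl1 averaged 139.8 ± 59.9 CPM against 263 ± 62.8 and 9.26 ± 2.26 CPM, and was 1 of the 10 genes highest over stroma (log2 fold change 3.92, SE 0.10, adjusted p = 8.3e-10). The log2 fold change of Myl6 was -1.11 ± 0.08 against Myoc smooth muscle and 1.57 ± 0.08 against stroma, and that of Vcl was -0.92 ± 0.09 and 1.05 ± 0.06. A match of letters is a description and not a bound site. Acta2 and Cnn1 held no exact box in this window, from which nothing follows about serum response factor there.

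The genes that most parted the gated cells from Myoc smooth muscle were not only contractile. Adamtsl2, a secreted protein that binds fibrillin and latent TGF-β binding protein, stood at 50.9, 50.7, 37.5, 25.8 and 39.2 CPM against 5.41, 0, 1.73, 0 and 2.09 CPM and led the list (log2 fold change 4.01, SE 0.33). Chst3, a chondroitin sulfotransferase, averaged 24.4 ± 5.203 CPM against 2.15 ± 1.55 CPM, Srpx2, a secreted sushi-repeat protein, 76.5 ± 19.6 against 9.08 ± 2.12, and Nnat, an imprinted gene encoding the membrane proteolipid neuronatin, 148 ± 40.4 against 22.7 ± 10.3. All were higher in 5 of 5 libraries. Hmga2, a chromatin protein of growing tissue, averaged 24.2 ± 10.8 against 3.74 ± 7.39 CPM, with ranges that overlapped although each library gave a higher level in the gated cells. Myoc smooth muscle held no UMI of Adamtsl2 at 3 and 5 wk, of Chst3 at 3 wk and of Hmga2 at 4 to 6 wk. Adamtsl2, Chst3 and Hmga2 thus passed the filter on low counts mainly through the gated cells. Their fold changes are a description and not exact values. The remaining 5 genes of the leading 10 were of cell division, namely Kif23, Cenpf, Prc1, Ccnb2 and Top2a, with log2 fold changes of 2.85 to 3.32. Of the 7 division genes tested from a list of 11, 6 were higher (3 of 7 without the library block, 3 of 5 with at least 4 markers and 0 of 2 after thinning), with Top2a at 145, 72.8, 10.3, 94.9 and 78.3 CPM against 39.7, 0, 1.73, 2.71 and 3.14 CPM. Ccnb2 stood at 9.02, 0, 0, 0 and 2.09 CPM in Myoc smooth muscle, so such genes passed the filter on low counts mainly through the gated cells. The 6 of 7 is therefore a description and no test. With no filter on low counts, 10 of 11 were higher and 0 lower.

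Lower than in Myoc smooth muscle beside Des, Cnn1 and Actg2 were the cadherin gene Cdh6 (-3.94 ± 0.26), Filip1, a filamin-interacting protein (-3.54 ± 0.20), the matricellular gene Postn, encoding periostin (-3.402 ± 0.18), Pgm5, an adhesion protein of muscle (-3.32 ± 0.29), the insulin-responsive glucose transporter gene Slc2a4 (-3.19 ± 0.29), the lipase gene Mgll (-2.997 ± 0.18) and Tagap (-2.82 ± 0.29). Filip1 stood at 5.97, 9.57, 9.56, 7.08 and 6.44 CPM in the gated cells and 121, 54.1, 107, 84.1 and 62.8 CPM in Myoc smooth muscle. The values of each of these genes were apart in all 5 libraries.

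Against fibroblastic stroma, the leading genes beside Cnn1, Actg2, Myh11, Fhl1, Mustn1 and Synpo2 were Pkp2, a desmosome protein (4.51 ± 0.19), Fhdc1, a formin-like actin regulator (3.79 ± 0.12), Myom1, a myomesin that cross-links thick filaments (3.76 ± 0.18), and the tetraspanin gene Tspan18 (3.700 ± 0.17). Pkp2 stood at 11.6, 25.4, 33.8, 51.3 and 43.7 CPM in the gated cells and 0.873, 0.933, 1.56, 1.204 and 2.21 CPM in stroma. The genes lowest against stroma were C3, the central complement component, at 0.351, 1.44, 0, 1.42 and 0.537 CPM against 6.11, 39.8, 35.02, 175 and 19.1 CPM (log2 fold change -6.05, SE 0.26, adjusted p = 3.4e-08), and Igfbp3, a carrier of insulin-like growth factors (-5.92 ± 0.33). They were followed by the stromal collagen genes Col15a1 (-4.24 ± 0.21) and Col14a1 (-4.19 ± 0.31), Clec3b (-4.72 ± 0.26), the receptor partner Ramp3 (-4.19 ± 0.31), the serpin gene Serpina3g (-3.05 ± 0.22), Cd24a (-3.04 ± 0.24), the interferon-inducible Ifi203 (-2.88 ± 0.30) and Spry1, a brake on growth factor signalling (-2.74 ± 0.33). Without the library block Ifi203 did not pass (log2 fold change -2.90, edgeR adjusted p = 0.11). The gated cells held under 1 CPM of C3 on average, while stroma of the same library held far more each time. Igfbp3 lay under the level of 3 UMIs in the gated cells of every library, so its fold change is not an exact value.

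Against mural cells, Syt1, a synaptotagmin, stood at 25.3, 36.4, 22.8, 38.2 and 23.6 CPM in the gated cells and had no UMI in 598 mural cells, which made it at least 52.3-fold higher with 3 UMIs over the group as the limit. Pparg, a lipid-sensing nuclear receptor, stood at 83.6, 50.7, 47.8, 89.2 and 78.1 CPM against 3.16, 1.74, 5.61, 2.91 and 2.06 CPM (log2 fold change 4.83, SE 0.23, adjusted p = 4.4e-09), and Col11a1, a minor fibrillar collagen, at 250.4, 377, 459.6, 248 and 318 CPM against 13.7, 10.5, 29.9, 4.37 and 13.9 CPM (log2 fold change 4.73, SE 0.18, adjusted p = 9.3e-10). The formin gene Fhod3 (4.87 ± 0.37) and the protocadherin gene Pcdh9 (4.79 ± 0.38) completed the 5 highest. Mural cells held no UMI of Fhod3 at 2 and 3 wk and none of Pcdh9 at 6 wk, so neither fold change is an exact value. Nostrin had no UMI in the gated cells and averaged 172 ± 28.6 CPM in mural cells, at least 772-fold lower by the same limit. The olfactory receptor gene Olfr558 (-8.64 ± 0.35) and the respiratory subunit genes Cox4i2 (-8.68 ± 0.18) and Ndufa4l2 (-8.61 ± 0.29), all abundant in mural cells, were nearly absent. Olfr558 did not exceed the level of 3 UMIs in any library of the gated cells, so its fold change is not an exact value. Ndufa4l2 stood at 2.46, 5.27, 5.15, 0.708 and 0.268 CPM against 813, 969, 1180.0, 952 and 1072 CPM.

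Receptors and signals that set vascular and visceral tone were mixed. Of 17 such genes tested against Myoc smooth muscle 3 were higher and 4 lower, of 23 against stroma 5 and 5, and of 22 against mural cells 5 and 13, with medians of 0.12, -0.04 and -1.17. After thinning to 5000 UMIs none of the 13 genes still tested against Myoc smooth muscle passed in either direction. Among all genes tested, 10.2% were higher and 10.3% lower against Myoc smooth muscle. The shares were 10.6 and 11.0% against stroma and 17.8 and 19.8% against mural cells. The counts of the lists in the paragraphs that follow are to be read beside these same shares. Ednra, the second endothelin receptor, stood at 42.9, 41.2, 35.3, 46.7 and 61.2 CPM in the gated cells and differed by -0.52 ± 0.14 from Myoc smooth muscle and -1.201 ± 0.11 from mural cells, and its difference from stroma did not pass (log2 fold change 0.16, SE 0.12, adjusted p = 0.42). The ligand gene Edn3 stood at 15.1, 16.8, 13.2, 13.1 and 16.9 CPM, above Myoc smooth muscle in 4 of 5 libraries (log2 fold change 1.51, SE 0.41, adjusted p = 0.012) and below stroma (log2 fold change -0.76, SE 0.15, adjusted p = 0.0032). Oxtr, the oxytocin receptor, stood at 9.13, 7.66, 13.97, 18.1 and 34.1 CPM against 0.873, 1.87, 2.25, 3.01 and 5.42 CPM in stroma (log2 fold change 2.71, SE 0.19, adjusted p = 1.0e-06), and its difference from Myoc smooth muscle, at 5.41, 3.38, 10.4, 13.6 and 20.9 CPM, did not pass (log2 fold change 0.58, SE 0.23, adjusted p = 0.087). The mural cells held 1 UMI of Oxtr in all. The subunits of the nitric oxide receptor guanylate cyclase, Gucy1a1 and Gucy1b1, were higher than in Myoc smooth muscle (0.402 ± 0.12 and 0.92 ± 0.21) and lower than in mural cells (-2.29 ± 0.11 and -3.57 ± 0.16). Agtr1a, the angiotensin receptor, and Rgs4, a brake on G proteins, were both lower than in mural cells (-6.38 ± 0.35 and -7.697 ± 0.35).

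Among ion channel and calcium handling genes, 7 of 15 were lower and 2 higher against Myoc smooth muscle (median -0.53, with 0 lower and 1 higher of the 7 still tested after thinning to 5000 UMIs) and 13 of 21 lower against mural cells (median -0.96). Against stroma, 7 of 23 were higher and 8 lower (median 0.24). Kcnmb1, the smooth muscle subunit of the calcium-activated potassium channel, stood at 9.13, 13.9, 19.9, 16.3 and 15.8 CPM against 65.9, 60.8, 56.98, 56.97 and 46.04 CPM in Myoc smooth muscle and 1.67, 1.71, 3.29, 1.204 and 1.304 CPM in stroma (log2 fold change -1.99, SE 0.19, adjusted p = 8.6e-07, and log2 fold change 3.07, SE 0.23, adjusted p = 1.8e-06). Cacna1c, the pore of the L-type calcium channel, followed the same order (-0.82 ± 0.20 and 0.79 ± 0.12). Kcnab1, a potassium channel subunit, was instead higher than in both (1.14 ± 0.16 and 1.73 ± 0.15), at 41.8, 56.5, 88.2, 94.5 and 91.2 CPM.

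Transcription factors gave no common direction. Of the list of serum response factor cofactors and stromal or muscle factors, 7 of 28 were higher and 5 lower against Myoc smooth muscle (median -0.03), 7 of 30 and 5 against stroma (0.07), and 10 of 30 and 11 against mural cells (-0.03). Srf itself was higher than in stroma (log2 fold change 0.66, SE 0.10, adjusted p = 0.00045). Lhx9, a homeobox gene, was higher than in stroma (1.04 ± 0.22) and in mural cells (2.71 ± 0.34). Tcf21, a factor of gonadal stroma, stood at 461, 152, 116, 200.4 and 266 CPM against 153, 97.97, 79.4, 84.1 and 121 CPM in Myoc smooth muscle (log2 fold change 1.11, SE 0.13, adjusted p = 4.7e-06), and Klf4, a factor known to hold back contractile genes, was also higher there (0.78 ± 0.09). Wt1, a factor of the gonadal mesenchyme, was lower than in Myoc smooth muscle (-0.496 ± 0.14) and stroma (-0.51 ± 0.08) and higher than in mural cells (3.04 ± 0.22).

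Of the hormone receptors, Esr2, encoding estrogen receptor β, was higher than in all 3 groups. It stood at 34.8, 57.9, 107, 72.9 and 78.3 CPM in the gated cells, at 7.22, 33.8, 27.6, 17.6 and 27.2 CPM in Myoc smooth muscle, at 19.3, 29.7, 42.3, 39.5 and 42.9 CPM in stroma and at 8.44, 1.74, 5.61, 4.37 and 6.69 CPM in mural cells. The differences were present in 5 of 5 libraries each (log2 fold change 1.71, SE 0.18, adjusted p = 1.7e-06, then log2 fold change 1.03, SE 0.09, adjusted p = 8.1e-06, then log2 fold change 3.698, SE 0.25, adjusted p = 1.0e-07). Granulosa cells, which are rich in this receptor, held 70.3, 136, 205, 145 and 166 CPM. Their part in these differences was not tested. Of 6, 7 and 6 receptors tested, 2, 1 and 3 were higher and 1, 2 and 1 lower against Myoc smooth muscle, stroma and mural cells (medians 0.01, -0.04 and 0.27), with Prlr, the prolactin receptor, lower each time. Steroid synthesis genes were too low to test against Myoc smooth muscle, and 3 of 5 were lower than in stroma (median -1.34) and 1 of 2 lower than in mural cells (median -1.60).

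Matrix genes divided the cells in another way. Against Myoc smooth muscle 14 of 41 were higher and 6 lower (median 0.01), against stroma 5 of 46 higher and 29 lower (median -0.41), and against mural cells 20 of 44 higher and 13 lower (median 0.24). Col11a1 was higher than in Myoc smooth muscle and stroma too (1.66 ± 0.11 and 1.52 ± 0.09), as was the elastic microfibril gene Mfap5 (0.61 ± 0.10, 2.098 ± 0.10 and 4.49 ± 0.30), at 341, 408, 476, 311 and 367 CPM. The basement membrane collagen genes Col4a1 and Col4a2 were lower than in stroma (-0.86 ± 0.14 and -0.804 ± 0.12) and in mural cells (-2.52 ± 0.07 and -2.53 ± 0.08). Among ADAMTS and matrix protease genes, 7 of 18, 2 of 22 and 9 of 20 were higher and 3, 10 and 8 lower (medians 0.12, -0.34 and 0.32). Adamts5, an aggrecanase, was higher than in Myoc smooth muscle (0.73 ± 0.21) and stroma (0.69 ± 0.15). Of integrin and adhesion genes, 1 of 17 was higher and 6 lower than in Myoc smooth muscle (median -0.12), 11 of 19 higher and 1 lower than in stroma (0.36), and 9 of 21 higher and 8 lower than in mural cells (0.16).

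**Figure D4:**
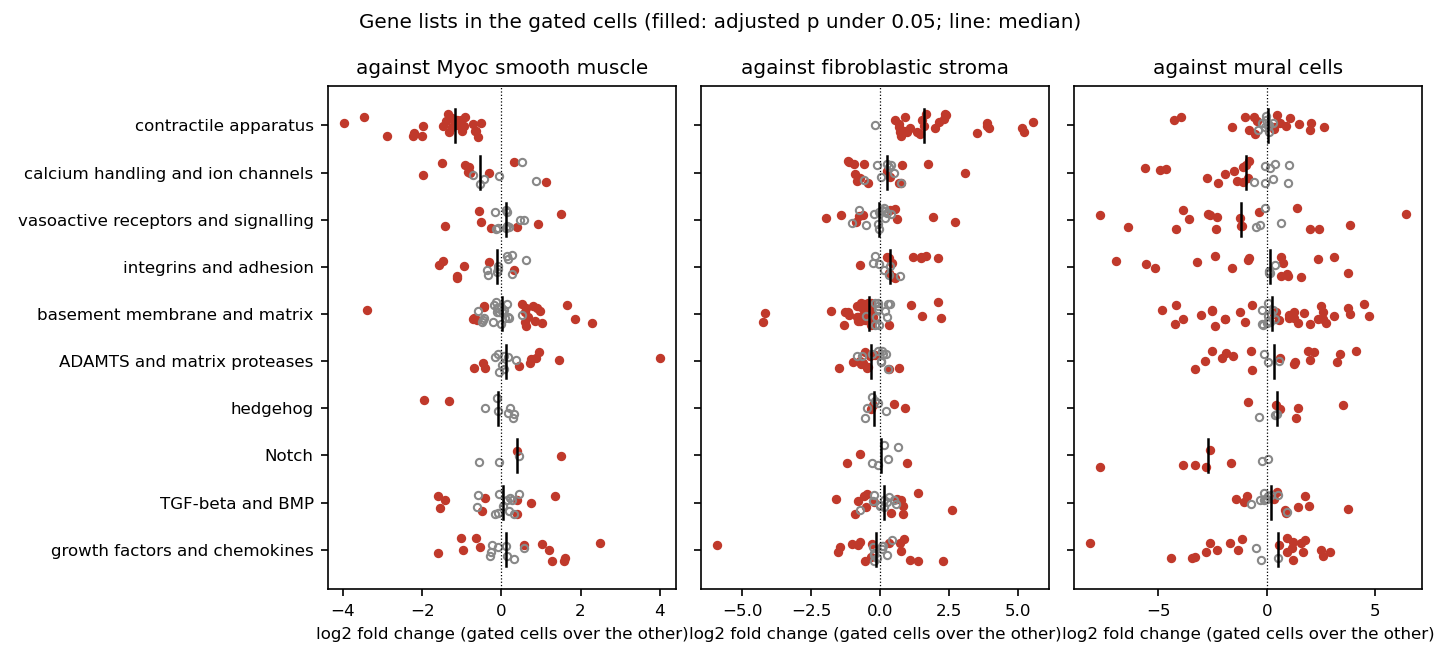
Log2 fold change of each tested gene (x axis, gated cells over the other group) for 10 of the gene lists (y axis), 1 panel per comparison. Filled points passed an adjusted p of 0.05, open points did not, and the line is the list's median. Contractile genes lie to the left of 0 against Myoc smooth muscle (27 of 27 lower) and to the right against fibroblastic stroma (26 of 27 higher).

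Signalling lists were smaller and mostly divided. Hedgehog genes, which carry signals known to come from granulosa cells, were 2 of 9 lower against Myoc smooth muscle (median -0.08), 2 of 10 higher and 2 lower against stroma (-0.22) and 5 of 9 higher and 1 lower against mural cells (0.46). Hhip, a target and inhibitor of the pathway, stood at 80.1, 97.2, 80.9, 69.05 and 78.6 CPM and was higher than in stroma (log2 fold change 0.89, SE 0.10, adjusted p = 5.4e-05) and mural cells (3.54 ± 0.31), and Ptch1, the receptor, was higher than in mural cells (1.36 ± 0.15), while Gli1, another target, was lower than in stroma (-0.33 ± 0.09). Notch genes were lower in 6 of 8 against mural cells, with a median of -2.72. Against Myoc smooth muscle 2 of 5 were higher and 0 lower (median 0.39), and against stroma 1 of 8 was higher and 2 lower (median 0.01). TGF-β and BMP genes were 4 of 21 higher and 5 lower, 7 of 25 and 7, and 8 of 21 and 3 (medians 0.03, 0.14 and 0.21), with 0 higher and 4 lower of 17 against Myoc smooth muscle after thinning. Bmpr1b, a BMP receptor, was higher than in stroma (2.58 ± 0.17) and mural cells (3.74 ± 0.24), and is another gene abundant in granulosa cells, at 57.2, 66.9, 108, 132 and 134 CPM against 30.9, 23.5, 29.4, 41.1 and 32.7 CPM in the gated cells.

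Of growth factor and chemokine genes, 7 of 20 were higher and 5 lower against Myoc smooth muscle, 7 of 26 and 9 against stroma and 12 of 25 and 10 against mural cells (medians 0.12, -0.17 and 0.53). Vegfd, a growth factor for lymphatic vessels, was higher in all 3 comparisons (2.49 ± 0.24, 0.74 ± 0.12 and 2.61 ± 0.33), at 38.99, 37.3, 36.03, 72.2 and 55.3 CPM. Pdgfra, the receptor typical of fibroblasts, was higher than in Myoc smooth muscle (1.21 ± 0.16) and mural cells (2.51 ± 0.22), and Pdgfrb, typical of pericytes, was higher than in Myoc smooth muscle (1.59 ± 0.25) and lower than in stroma (-1.02 ± 0.11) and mural cells (-3.44 ± 0.12). Imprinted growth genes were 2 of 9 higher and 3 lower, 4 of 9 lower, and 3 of 9 higher and 4 lower (medians -0.21, -0.09 and 0.00). Immediate-early and heat-shock genes, which dissociation can induce, were 3 of 19 higher and 4 lower, 7 and 2, and 9 and 5 (medians -0.10, 0.07 and 0.30). Of 11 division genes, edgeR called 0 against stroma, with 2 at an unadjusted p under 0.05 and 0 by DESeq2 (median -0.15), while 2 were lower with no filter or without the 2 wk library and 4 after thinning. Against mural cells 2 were lower (median -0.35), with 4 without the 2 wk library and 6 after thinning. Thinning also lowered the calls of other lists against Myoc smooth muscle, to 3 higher and 0 lower for proteases, 9 and 4 for matrix genes, 1 and 2 for adhesion genes, 4 and 2 for growth factor genes and 6 and 2 for transcription factors.

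Within the gated cells, 397 held UMIs of both Ednrb and Foxp2, 239 of Ednrb only, 405 of Foxp2 only and 162 of neither. Contractile genes outside the rule summed to a mean of 21840.1 ± 4013 CPM (SD, n = 5 libraries) in cells with both, 19308 ± 3648 CPM with Ednrb only, 16281 ± 3239 CPM with Foxp2 only and 15572 ± 3568 CPM with neither. Acta2 averaged 5564, 4708, 3948 and 3899 CPM in that order. Within each of the 5 libraries the contractile sum was highest in cells with both. Cells with neither had reached the threshold through the 4 other markers, so these are descriptions of cells split by their own UMIs. The fibroblast list averaged 2956 ± 584, 3386 ± 316, 3272 ± 640.2 and 4193 ± 138 CPM, highest in cells with neither. Ptch1 and Hhip did not follow that order, with mean levels of 222, 265, 214 and 253 CPM for Ptch1. The mean depth was 9598, 9604, 11198 and 11679 UMIs per cell in the same order.

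Between the 2 wk and the 6 wk library most genes of the gated cells differed by less than 2-fold. Of 4406 genes with at least 200 UMIs over the 2 and 6 wk libraries, 81 (1.84%) stood at least 2-fold higher at 6 wk and 92 (2.09%) at least 2-fold lower, with a median ratio of 0.966. The 2 highest ratios were those of Ifi27l2a and Isg15, both known as interferon-response genes. Ifi27l2a stood at 8.43, 9.57, 86.03, 201 and 253 CPM from 2 to 6 wk (ratio of 6 over 2 wk 30.01, 95% interval 20.04 to 47.1), and Isg15, a ubiquitin-like modifier, at 3.16, 3.83, 22.8, 33.3 and 65.7 CPM (ratio of 6 over 2 wk 20.8, 95% interval 10.8 to 46.01). Both went up between 3 and 4 wk, with a ratio of 4 over 2 wk of 10.2 for Ifi27l2a and 7.21 for Isg15 within the earlier Cell Ranger version, and of 6 over 5 wk of 1.26 and 1.97 within the later one. Fibroblastic stroma of the same libraries showed ratios of 31.6 and 43.1, so the later libraries stood higher in that group too.

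Epas1, a hypoxia-inducible factor, stood at 7.73, 13.4, 27.2, 47.8 and 58.8 CPM (ratio of 6 over 2 wk 7.603, 95% interval 4.896 to 12.4), C1s1, a complement protease, at 13.7, 22.98, 39.7, 42.8 and 67.9 CPM (ratio of 6 over 2 wk 4.95, 95% interval 3.53 to 7.13) and Lgals3bp, a secreted lectin ligand, at 13.00, 18.7, 47.8, 59.1 and 69.2 CPM (ratio of 6 over 2 wk 5.33, 95% interval 3.76 to 7.73). All 3 were higher at each later age. Their ratios in fibroblastic stroma were 6.34, 3.99 and 5.11. Txnip, a brake on glucose uptake, reached a ratio of 4.64, and AY036118 and Lars2, both of which can collect reads of ribosomal RNA, ratios of 18.2 and 9.17. Their stromal ratios were 5.796, 19.2 and 6.36. AY036118 stood at 50.2, 209, 215, 789 and 912 CPM and Lars2 at 17.6, 50.7, 58.1, 177 and 161 CPM, so both were higher at 3 than at 2 wk, within the earlier Cell Ranger version, and again at 5 than at 4 wk, where the version changed. Epas1, C1s1 and Lgals3bp had ratios of 4 over 2 wk of 3.52, 2.899 and 3.68 and of 6 over 5 wk of 1.23, 1.58 and 1.17.

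The 8 lowest ratios included those of the imprinted genes Meg3 and Zdbf2 and the matrix gene Eln. Mme, the peptidase neprilysin, stood at 64.6, 8.62, 1.47, 6.37 and 5.097 CPM (ratio of 6 over 2 wk 0.0789, 95% interval 0.0464 to 0.127), the imprinted noncoding gene Meg3 at 117, 192, 113, 17.7 and 11.3 CPM (ratio of 6 over 2 wk 0.0966, 95% interval 0.0684 to 0.133) and Eln, elastin, at 75.2, 60.8, 81.6, 13.5 and 9.93 CPM (ratio of 6 over 2 wk 0.132, 95% interval 0.0905 to 0.188). Mme was already low at 3 wk, with a ratio of 4 over 2 wk of 0.0228, whereas Meg3 and Eln had ratios of 4 over 2 wk of 0.965 and 1.09 and stood lower at 5 and 6 wk. Stroma of the same libraries had no such step between 4 and 5 wk, with 91.4 and 90.9 CPM for Eln and 106 and 183 CPM for Meg3, which in stroma had stood at 334 CPM at 3 wk. Nrk, a kinase, had a ratio of 0.139, the imprinted gene Zdbf2 of 0.183, Penk, an opioid peptide precursor, of 0.189, Dpep1, a dipeptidase, of 0.204 and the gene model AC160336.1 of 0.0630. In stroma the ratios were 0.188 for Mme, 0.0779 for Meg3, 0.205 for Eln and 0.428 for Penk.

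**Figure D5:**
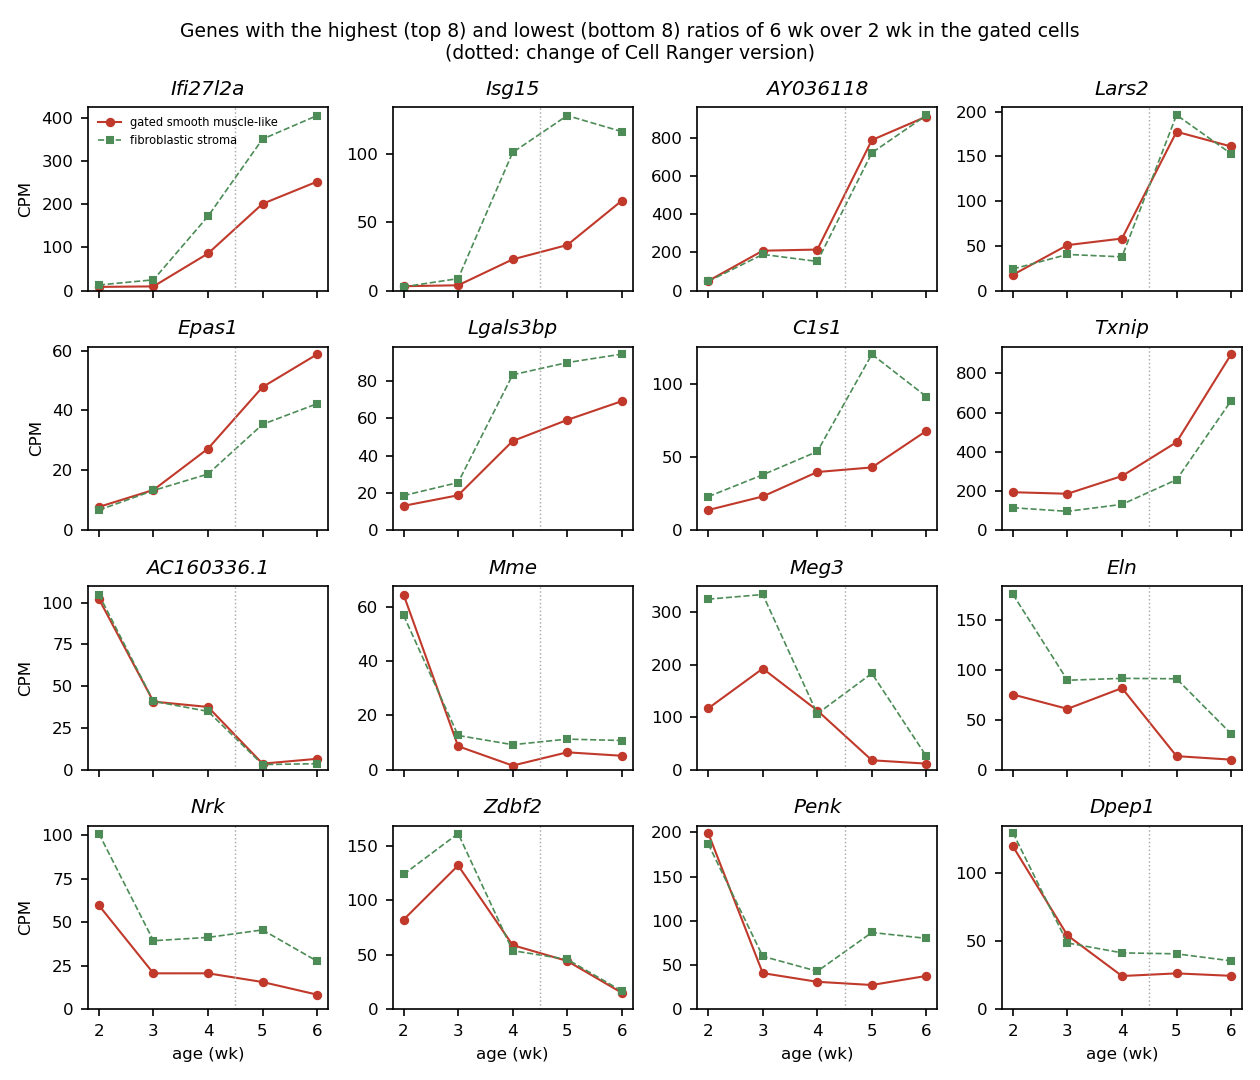
Level in CPM (y axis, scaled for each gene) by age in wk (x axis) of the 8 genes with the highest and the 8 with the lowest ratio of 6 over 2 wk in the gated cells, beside fibroblastic stroma of the same libraries. Each point is 1 library, with no replicate, and the dotted line marks the change of Cell Ranger version. Ifi27l2a runs from 8.43 to 253 CPM in the gated cells.

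A level that went one way over all 4 steps was found for 42 genes upward and 55 downward, of which 12 and 13 also passed 2-fold. Beside those above, the upward genes included Smoc2, a matrix protein, at 181, 328, 338, 374 and 504 CPM, Id3, an inhibitor of helix-loop-helix factors, at 587, 609.9, 881, 1031 and 1377 CPM, and Prelp, Pla2g16 and Scarb2, with ratios of 3.35, 3.22 and 2.15. The stromal ratios of these 5 genes were 1.97, 1.71, 3.64, 3.68 and 1.703. The downward genes included Pdlim3, a PDZ-LIM protein of the actin cytoskeleton, at 211, 111, 61.8, 57.7 and 46.9 CPM, Sfrp1, a secreted Wnt inhibitor, at 399.7, 284, 201, 154 and 131 CPM, Col4a4, a basement membrane collagen, at 412, 375, 239, 193 and 146 CPM, and Peg3, an imprinted gene, at 149, 125, 116, 107 and 52.04 CPM. Lama2, Gpc3, Itm2a, Pam, Lpar1, Lsp1, Nt5dc2 and Paxbp1 had ratios of 0.421 to 0.495. Stroma of the same libraries stood lower at 6 wk for each downward gene named, with ratios of 0.201 to 0.793.

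Of the 26 contractile genes with enough UMIs, 1 (Pdlim3) was past 2-fold between 2 and 6 wk, and the median ratio was 1.09 against 0.966 over all genes. The ages between stood higher for several of them, as the levels of Myh11 show, at 300.3, 658, 863, 657 and 435 CPM from 2 to 6 wk, and those of Actg2, at 153, 302, 400.0, 359 and 267 CPM. Matrix genes had a median ratio of 0.723, with 6 of 37 past 2-fold lower (Col4a5, Eln, Lama2, Col12a1, Mfap4 and Tgfbi), growth factor genes of 0.720, with 5 of 17 (Igfbp5, Pdgfra, Ctgf, Igf1 and Vegfa), and imprinted genes of 0.623, with 3 of 8 (Peg3, Plagl1 and Meg3). Protease genes had a median of 0.715, with 3 of 13 lower (Adamts9, Mmp2 and Adamts5) and Mmp11 higher. Past 2-fold upward in the other lists were Rgs2 (1 of 12 genes of its list), Kcnab1 (1 of 6), Id3 (1 of 13) and Esr2 (1 of 4). Downward they were Wt1 and Gata6 (2 of 22), Npr1 (1 of 12) and Mcm6 (1 of 8). Over all 4406 genes, 1.84% were past 2-fold higher and 2.09% past 2-fold lower. The 19 immediate-early and heat-shock genes had ratios of 6 over 2 wk within 2-fold, with a median of 1.06.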

How the data were processed

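Whole-ovary cell suspensions from 5 ages, 1 library each, were profiled. The authors deposited UMI counts per gene and cell as filtered matrices, made with Cell Ranger against mm10 (3.1.0 at 2, 3 and 4 wk and 6.0.1 at 5 and 6 wk, per the file headers), and the submitters' processing notes name Cell Ranger 3.1.0 and Seurat 4.1.0. Each table held 31053 genes. The number of animals per library is not given in the sources used here.

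Cells were gated from these counts in Python 3.11.15 with the limits stated in the report, and no clusters were used. Doublets were called with Scrublet in scanpy 1.11.5 and kept. Across libraries, 273 cell barcodes occurred in more than 1 library, none of them among gated cells of both. UMIs were summed per group and library where a sum held at least 20 cells and tested with edgeR 4.0.16 in R 4.3.3 (TMM, filterByExpr, glmQLFTest, library as block, Benjamini-Hochberg, threshold 0.05). DESeq2 1.42.0, other scaling, no filter, no block, other marker minimums, other limits on mitochondrial share and Inha, left-out doublets, left-out libraries and thinning to 5000 UMIs were run as alternatives. For thinning, the gates of all groups were applied again to the thinned counts. Levels by age are CPM of summed UMIs with exact Poisson intervals, ratios have intervals conditional on both counts, and shares have Clopper-Pearson intervals. The scripts were tested on simulated counts.

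Genes were named by rule. In each comparison these were the 10 highest and 10 lowest log2 fold changes (5 and 5 for mural cells) among genes past the threshold, at 20 CPM or more in the higher group and apart in the same direction in every library, without gate, ribosomal, mitochondrial and model genes. By age they were the 8 highest and 8 lowest ratios of genes with at least 200 UMIs, and genes that went one way and passed 2-fold, a limit added to keep their number small. Beside these, members of 16 gene lists are named. A few genes that the rule or the lists would name are not reported here. The gated cells, the groups and the lists were chosen with earlier results of these data known.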

Additional observations from a re-analysis of the deposited data

How the results depend on the processing

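The share of gated cells depended on the rule. With at least 2 of the 6 markers it was 6.16, 5.97, 3.81, 6.18 and 6.19% from 2 to 6 wk, with at least 4 it was 1.17, 1.38, 0.873, 2.27 and 1.97%, and with no UMI of Inha 1.79, 1.51, 0.763, 3.29 and 1.86%. Thinning to 5000 UMIs gave 1.74% at 2 wk and 2.29% at 3 wk. With no limit on Inha, chosen after seeing the data, it was 3.499, 3.63, 5.15 and 4.61% from 3 to 6 wk. The share was higher at 5 than at 4 wk under each, but 4 wk stood above 2 and 3 wk with no limit on Inha, and with 2 markers the shares at 2 and 3 wk were close to those at 5 and 6 wk. Replicate numbers do not pair samples here, since each library gave both groups of a comparison, and the library block stands for that pairing. Without the replicate block, the genes higher and lower than in Myoc smooth muscle numbered 236 and 335 instead of 879 and 890, and those against fibroblastic stroma 422 and 313 instead of 1187 and 1229. DESeq2 called 487 and 549 against Myoc smooth muscle and 732 lower than in stroma. Thinning called 247 and 232 against Myoc smooth muscle, with 4 libraries because the 3 wk sum held too few cells. No filter on low counts gave 1867 genes lower than in stroma. Leaving out 1 library at a time gave 654 to 824 higher and 642 to 874 lower against Myoc smooth muscle, 867 to 1223 and 832 to 1198 against stroma, and 1432 to 1681 and 1632 to 1854 against mural cells. Genes at least 2-fold higher and lower at 6 wk numbered 44 and 38 with at least 4 markers, 37 and 35 after thinning (fewer genes reach 200 UMIs in both) and 268 and 352 with a minimum of 50 UMIs. Contractile genes lower than in Myoc smooth muscle numbered 22 to 27, and those higher than in stroma 24 to 27, under every alternative run. Of 582 values of the genes named by rule under these alternatives, 581 kept direction and call, and the exception was Ifi203 against stroma without the block (log2 fold change -2.90, edgeR adjusted p = 0.11). Of 57 ratios by age 3 moved, for Txnip (4.11 with at least 4 markers, 3.82 after thinning) and Penk (0.258 with at least 4 markers). A named gene that an alternative did not test, or that fell under its minimum of UMIs, gave no value and is missing from these counts. The causes of these changes were not tested. With 172 to 316 gated cells per library, genes under 0.805 to 2.21 CPM, the level of 3 UMIs, could not be told from absent in the gated cells. That level was higher in Myoc smooth muscle, whose sums held only 295999 to 1108153 UMIs per library.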

Other observations

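The adhesion genes that stood higher than in fibroblastic stroma included parts of the dystrophin complex and of cell junctions. Dmd, the dystrophin gene, stood at 69.2, 127, 172, 179.9 and 119 CPM from 2 to 6 wk against 27.5, 24.1, 34.7, 34.9 and 33.4 CPM in stroma (log2 fold change 2.08, SE 0.14, adjusted p = 8.4e-07), and the neural cell adhesion gene Ncam1 at 92.03, 81.9, 101, 104 and 66.5 CPM against 49.8, 31.1, 29.3, 32.1 and 23.8 CPM (log2 fold change 1.46, SE 0.12, adjusted p = 5.2e-06). The values of the groups did not overlap for either gene. Itga8, an integrin of contractile cells, was higher as well (log2 fold change 1.19, SE 0.18, adjusted p = 0.0004). Dmd was lower than in Myoc smooth muscle (log2 fold change -1.12, SE 0.13, adjusted p = 4.3e-06), as was Ncam1 (log2 fold change -1.11, SE 0.11, adjusted p = 1.1e-06). Gja1, the gap junction gene connexin 43, was higher than in stroma (log2 fold change 0.45, SE 0.12, adjusted p = 0.017) and is abundant in granulosa cells, at 506, 804, 1049, 1429 and 1483 CPM, whose part in this difference was not tested.

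The heat-shock gene Hspa1a stood at 305, 274, 243, 492 and 379.9 CPM in the gated cells against 172, 164, 133, 335 and 204 CPM in stroma (log2 fold change 0.82, SE 0.06, adjusted p = 2.5e-06), and was lower than in Myoc smooth muscle (log2 fold change -0.72, SE 0.22, adjusted p = 0.028).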
